A study of Mus musculus with 6 samples.

Results

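A set of 10 immediate-early genes of tumor-associated macrophages (TAMs) were followed here: the AP-1 subunits *Fos*, *Fosb*, *Jun*, *Junb* and *Jund*, the related factor *Atf3*, the transcription regulators *Egr1* and *Ier2*, and the feedback genes *Zfp36* and *Dusp1*. They were picked by name and with earlier results of these data known, as genes of one early transcriptional response. The handling of tissue can also induce them, and they are 10 of the 39179 genes in the deposited table. All 10 passed the filter on low counts that left 8793 genes for testing.

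TAMs had been sorted from tumors of a *Braf*-mutant mouse melanoma line, and 3 libraries came from wildtype tumor cells (Ptgs-competent) and 3 from tumor cells lacking *Ptgs1* and *Ptgs2* (Ptgs-deficient), the genes of the cyclooxygenases that start prostaglandin synthesis. Hosts in both groups were C57BL/6 mice that were 8 weeks old, each library was a pool of tumors, and the edit was in the tumor cells alone, so that all macrophages were of host genotype. The gate took live CD45+ CD11b+ F4/80+ cells without NK1.1 or Ly6G and with little or no Ly6C, after enzymatic digestion of the tumors, and each library was made from 800 pg of RNA. Read totals ran from 4431184 to 8760679 per library. Because pools are not single animals and the labels give no date or batch, the p-values measure only the spread between these 6 pooled samples, and in bulk RNA fewer cells expressing a gene and less of its RNA per cell cannot be told apart.

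Immediate-early genes are transcribed within minutes of a stimulus from factors already present in the cell, with no need for new protein. MAP kinases activate SRF partners, CREB and Jun at their promoters, and the Fos and Jun proteins made next pair into AP-1, which binds enhancers of inflammatory, matrix and growth genes in macrophages. Feedback genes are induced in the same wave: Dusp1 dephosphorylates p38 and JNK, and Zfp36 (tristetraprolin) binds AU-rich elements in 3′ untranslated regions (UTRs) and speeds the decay of the mRNA.

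The promoter sequences are shown because the members are described as one transcriptional response. Windows from 250 bases before to 50 after the start of each gene were available for 8 members (RefSeq, GRCm38.p6) and were searched on both strands. The letters TGACG, the core of the CRE to which CREB and ATF proteins bind, occurred in 5 of the 8 members, compared with 20.8% of 32851 promoters of the same length. The following lines give the site with its neighboring bases on the strand of the gene, with the searched letters in capitals (read as CGTCA where the match lies on the other strand). *Fos* held 2 such sites.

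*Fos* upstream site, chr12:85473735-85473791, plus strand: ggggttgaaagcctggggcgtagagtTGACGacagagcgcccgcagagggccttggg

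*Fos* downstream site, chr12:85473798-85473854, plus strand: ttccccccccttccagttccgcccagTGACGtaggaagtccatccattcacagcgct

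*Fosb*, chr7:19310075-19310131, minus strand: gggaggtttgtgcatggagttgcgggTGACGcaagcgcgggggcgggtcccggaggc

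*Junb*, chr8:84978824-84978880, minus strand: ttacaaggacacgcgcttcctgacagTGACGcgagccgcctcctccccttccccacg

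*Atf3*, chr1:191183334-191183366, minus strand: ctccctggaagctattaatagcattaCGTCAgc

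*Dusp1*, chr17:26508582-26508689, minus strand: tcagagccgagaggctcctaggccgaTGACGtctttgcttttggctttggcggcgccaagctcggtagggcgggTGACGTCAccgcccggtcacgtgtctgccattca

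In *Dusp1* the second set of capitals is the full palindrome TGACGTCA, which overlaps the shorter motif by construction, was found in no other member and occurs in 1.79% of promoters. *Jun* and *Zfp36* carried other letters. *Jun* held TGACATCA (3.62% of promoters), the variant element through which Jun and ATF proteins are known to act on the gene itself, and *Zfp36* held a CArG box, the motif of SRF (1.63% of promoters). The AP-1 letters TGACTCA or TGAGTCA were in 0 of the 8 windows and in 5.20% of all promoters. These matches describe letters in a window and not binding, and the *Jund* window held none of the searched motifs.

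*Jun*, chr4:95052234-95052293, minus strand: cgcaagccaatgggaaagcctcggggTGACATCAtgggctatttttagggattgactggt

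*Zfp36*, chr7:28379251-28379312, minus strand: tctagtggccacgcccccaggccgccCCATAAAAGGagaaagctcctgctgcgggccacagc

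The 3′ UTR sites are shown because Zfp36 acts on such elements, its own mRNA included. The nonamer TTATTTATT was present in the 3′ UTR of *Fos*, *Zfp36* and *Dusp1* (GENCODE M21, GRCm38), so in 3 of 10 members compared with 7.96% of 8389 other protein-coding genes tested. The shorter ATTTA, which the nonamer contains, was in 9 of 10 members (all but *Ier2*) and in 5884 of the 8389 others. Median 3′ UTR length was 794.5 bases in the members and 1190.0 in the others. Capitals mark the nonamer.

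*Fos*, chr12:85477103-85477131, plus strand: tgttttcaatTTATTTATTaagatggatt

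*Zfp36*, chr7:28376951-28376979, minus strand: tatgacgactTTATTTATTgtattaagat

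*Dusp1* proximal site, chr17:26506159-26506187, minus strand: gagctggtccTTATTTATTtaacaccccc

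*Dusp1* distal site, chr17:26505870-26505898, minus strand: gtttttacctTTATTTATTtttgtgtagg

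Checks of the sorted cells come before the results. Markers of the macrophage lineage (10 genes, among them *Adgre1*, which encodes F4/80, and *Lyz2*) summed to 11354 and 11894 CPM (read counts per library rescaled to a common total, with TMM factors) in 2 Ptgs-competent libraries and to between 11664 and 15106 in the Ptgs-deficient ones. The third Ptgs-competent library stood apart at 4532. *Lyz2* made up most of these sums, and 4 of the 10 markers were higher in every Ptgs-deficient library (11% of all genes tested). At an unadjusted p under 0.05, 3 of these were higher (5.0% of all genes), and none was called as higher by the quasi-likelihood test (0.159%). *Itgam*, which encodes CD11b, was at 603, 504 and 309 CPM against 892, 1150.2 and 1115 CPM. *Adgre1* was at 272, 281 and 86.9 CPM against 439.9, 432 and 508 CPM, and *Cd14* at 279, 187 and 118 CPM against 568, 569 and 394 CPM. The fourth was *Fcgr1*, and the other 6 overlapped. Ptgs-competent replicate 3 also had the most RNA of fibroblast and mesenchymal markers, with a sum of 949.7 against 337 and 301 in the other Ptgs-competent libraries and 42.7 to 68.8 in the Ptgs-deficient libraries. *Sparc* made up most of that sum (600 CPM against 180 and 126 in Ptgs-competent replicates 1 and 2), and *Col1a1*, *Col1a2* and *Pdgfrb* were also highest in replicate 3. *Col3a1* was lower there (49.1 against 61.0 and 67.0 CPM), and *Dcn*, *Lum*, *Pdgfra*, *Thy1* and *Fbn1* had no count in it. Of 10 melanocyte markers, 9 (*Dct*, *Tyr*, *Pmel* and *Sox10* among them) had no count in any library, and the remaining one, *Mitf*, which myeloid cells also express, was at 0 to 1.91 CPM in the Ptgs-competent and at 10.6 to 44.3 CPM in the Ptgs-deficient group. Summed markers of endothelial cells (107 to 219 against 37.4 to 71.9 CPM), neutrophils (539.7 to 709 against 439 to 532 CPM) and mast cells and basophils (79.3 to 108 against 13.7 to 48.5 CPM) were lower in every Ptgs-deficient library, and those of NK and T cells were higher (0.216 to 0.638 against 12.7 to 26.3 CPM). Of the 10 genes on each of these 4 lists, 5, 3, 4 and 6 had no count in any library. Most of these sums rested on 1 or 2 genes: *Pecam1* for endothelial cells, *S100a8* and *S100a9* for neutrophils, *Hdc* for mast cells and *Klrk1* for NK and T cells (no count against 26.3, 4.29 and 16.1 CPM), while *Ncr1*, *Cd3e*, *Cd3g*, *Cd4*, *Cd8a* and *Trac* had no count. The neutrophil gene *Retnlg* went the other way, at 20.2, 59.9 and 16.2 CPM against 123, 114 and 180.2 CPM. Markers of B cells (6.90 to 76.5 against 18.4 to 126 CPM) and dendritic cells (15.8 to 42.7 against 11.7 to 41.0 CPM) overlapped, but the B cell gene *Ighm* had no count in the Ptgs-competent group and 15.0, 16.3 and 89.6 CPM in the other (FDR = 0.198). The part of these cells, or of the macrophage markers that moved with the members, was not tested. The fold changes, family shares and correlations of the members are given below also without Ptgs-competent replicate 3.

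All 10 members had a higher level in the Ptgs-deficient than in the Ptgs-competent group, and none of them was called by the edgeR quasi-likelihood test, while other tests on the same counts called 3 or 4. Their summed level was 6182, 5182 and 3888 CPM in Ptgs-competent replicates 1, 2 and 3 and 10686, 12187 and 11864 CPM in the Ptgs-deficient replicates. Fold changes, as Ptgs-deficient over Ptgs-competent, ran from 0.76 on the log2 scale for *Dusp1* to 2.43 for *Zfp36*, with a median of 1.48 against 0.018 over all genes tested. For every member the lowest Ptgs-deficient library exceeded the highest Ptgs-competent one, an ordering found in 11% of all genes tested and in 17.7% of the 1648 genes at least as abundant as the least abundant member. The list was chosen with earlier results of these data known, so such shares describe the members and are not a test of them.

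A gene was called at a false discovery rate (FDR) of 0.05 or less together with an absolute log2 fold change of at least 1.5. By the edgeR quasi-likelihood test, 0 of 10 members were called, where 0.159% of genes were called as higher, and the FDR of the members lay between 0.0762 and 0.472. At an unadjusted p under 0.05 the same test counted 10 of 10 members, against 5.0% of all genes that passed it in the higher direction. This too describes a list chosen with earlier results known. Other tests on the same counts gave calls. The edgeR likelihood ratio test called *Fosb*, *Egr1* and *Zfp36* (1.55% of all genes called as higher), DESeq2 called these and *Fos* (1.97%), and limma voom called the same 4 genes as DESeq2 (0.716%). The quasi-likelihood test with no filter on low counts also called those 4 (0.913% of 13368 genes).

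**Figure D1:**
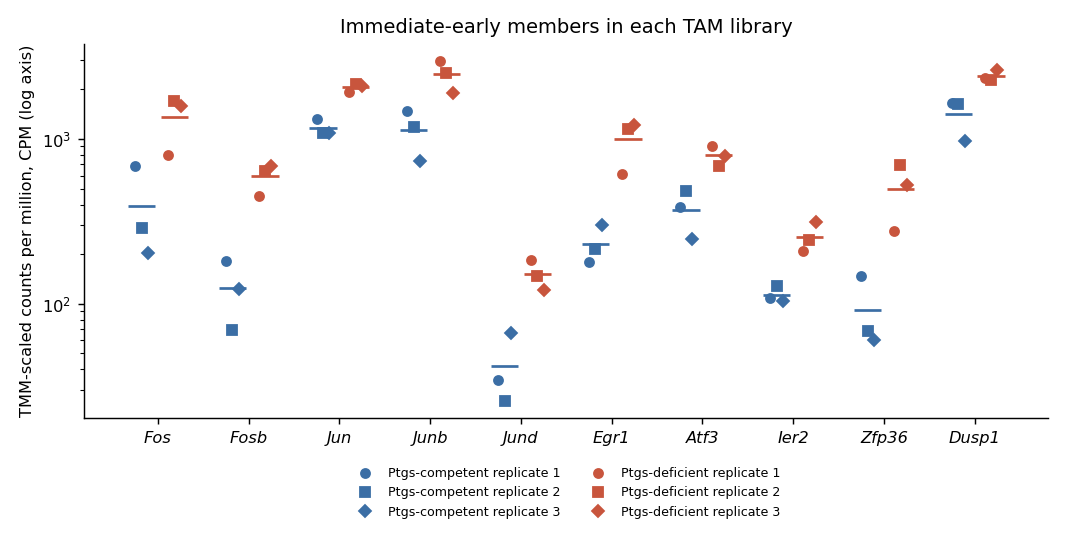
Level of each member in every library, in TMM-scaled CPM on a log axis. Circles, squares and diamonds are replicates 1, 2 and 3 and short lines are group means (n = 3). In all 10 genes every Ptgs-deficient library lies above every Ptgs-competent library, with the narrowest gap in *Fos*, between 685 and 795 CPM.

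*Fosb*, *Fos* and *Jund* were the AP-1 subunits with the largest differences. *Fosb* (ENSMUSG00000003545, chromosome 7, 19302696 to 19310051), which encodes a Fos protein that needs a Jun partner to bind DNA, measured 181, 69.1 and 123 CPM in Ptgs-competent TAMs against 451, 643 and 686 CPM in Ptgs-deficient TAMs (replicates 1, 2 and 3 in this order throughout). Its group means were 124 ± 55.7 and 593 ± 125 CPM (SD, n = 3), which differed by 2.26 ± 0.42 on the log2 scale (SE, FDR = 0.0762). All Ptgs-deficient libraries lay more than 2-fold above the highest Ptgs-competent one.

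*Fos* (ENSMUSG00000021250, chromosome 12, 85473890 to 85477273), the prototype of the family and holder of both a pair of TGACG sites and an AU-rich nonamer, measured 685, 288 and 202 CPM against 795, 1704 and 1581 CPM. The means were 391 ± 257 and 1360.1 ± 493 CPM (SD, n = 3), and the log2 fold change was 1.80 ± 0.49 (SE, FDR = 0.230). Here the 2 groups nearly met, since Ptgs-competent replicate 1 was high and Ptgs-deficient replicate 1 was low. Leaving out Ptgs-competent replicate 1 raised the log2 fold change to 2.48, and leaving out replicate 3 of that group lowered it to 1.53, with neither fit calling the gene.

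*Jund* (ENSMUSG00000071076, chromosome 8, 70698949 to 70700616), the Jun protein usually counted as the constitutive one, had the lowest level of the 10 members. It measured 34.3, 25.6 and 66.2 CPM against 184, 148 and 121 CPM, with means of 42.0 ± 21.4 and 151 ± 31.6 (SD, n = 3). The log2 fold change was 1.84 ± 0.55 (SE, FDR = 0.277). Unlike most members, *Jund* was highest in Ptgs-competent replicate 3 within its group, and without that library its log2 fold change was 2.38.

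*Junb* and *Jun* were far more abundant and differed less. *Junb* (ENSMUSG00000052837, chromosome 8, 84974484 to 84978718), which pairs with Fos proteins and can oppose Jun, measured 1472.5, 1182.5 and 735 CPM against 2970.5, 2517 and 1906 CPM. Its log2 fold change was 1.12 ± 0.35 (SE, FDR = 0.292) between means of 1130.0 ± 372 and 2465 ± 534 CPM (SD, n = 3). The 3′ end of *Junb* shares 351 bases with *Prdx2* on the opposite strand, and the strand setting of the count was not stated. *Prdx2* itself had 1032, 246 and 428 counts in the Ptgs-competent and 664, 1902 and 767 counts in the Ptgs-deficient ones, compared with *Junb* counts of 9239, 7205 and 3410 and of 16280, 21139 and 9211.

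*Jun* (ENSMUSG00000052684, chromosome 4, 95049034 to 95052222), the strongest transactivator of the Jun proteins, was even within both groups, at 1327, 1092 and 1082 CPM against 1938, 2139.6 and 2106.5 CPM. The means were 1167 ± 138 and 2061 ± 108 CPM (SD, n = 3) and the log2 fold change 0.82 ± 0.28 (SE, FDR = 0.346). The groups stood well apart, but the fold lay below the threshold of a call under every setting tried. *Atf3* (ENSMUSG00000026628, chromosome 1, 191170296 to 191218039), a stress-induced bZIP factor that represses many inflammatory genes, measured 386, 485 and 246 CPM against 907, 685 and 793 CPM. Its log2 fold change was 1.09 ± 0.34 (SE, FDR = 0.298) between means of 372 ± 119.8 and 795 ± 111 CPM (SD, n = 3).

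*Egr1* had the smallest p of all members. *Egr1* (ENSMUSG00000038418, chromosome 18, 34859823 to 34864984), a zinc-finger factor induced through ERK and SRF, measured 178, 215 and 299.6 CPM against 615, 1149.8 and 1219.8 CPM. The means were 231 ± 62.3 and 995 ± 331 CPM (SD, n = 3), and they differed by 2.11 ± 0.38 on the log2 scale (SE, FDR = 0.0762). It was the single member called by the quasi-likelihood test when a library was left out, at 2.39 (FDR = 0.0469) without Ptgs-competent replicate 3. *Ier2* (ENSMUSG00000053560, chromosome 8, 84661331 to 84662852), a nuclear protein with a role in transcription, measured 109, 127 and 104 CPM against 209.65, 243 and 312 CPM. Its values were tightly grouped in the Ptgs-competent libraries (113 ± 12.4 CPM) and wider in the Ptgs-deficient ones (255 ± 52.2 CPM, SD, n = 3), and the log2 fold change was 1.17 ± 0.37 (SE, FDR = 0.300).

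The 2 feedback genes marked both ends of the range of fold changes. *Zfp36* (ENSMUSG00000044786, chromosome 7, 28376784 to 28380253) measured 148, 68.6 and 59.9 CPM against 275, 691 and 522 CPM. Its means were 92.3 ± 48.7 and 496 ± 209 CPM (SD, n = 3), and its log2 fold change of 2.43 ± 0.49 (SE, FDR = 0.0967) was the largest of the members. As in *Fos*, replicate 1 was the highest Ptgs-competent and the lowest Ptgs-deficient library, and the levels of *Fos* and *Zfp36* followed each other most closely of the 45 pairs of members (Pearson r = 0.98 over 6 libraries of log2 CPM).

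*Dusp1* (ENSMUSG00000024190, chromosome 17, 26505590 to 26562128) measured 1662, 1629 and 969.6 CPM against 2342, 2267 and 2616 CPM, with means of 1420.2 ± 391 and 2408 ± 184 (SD, n = 3). The log2 fold change of 0.76 ± 0.31 (SE, FDR = 0.472) was the smallest of the 10, and it was 0.60 without Ptgs-competent replicate 3, the library in which *Dusp1* was lowest. Without that library the members not yet given stood at 2.29 for *Fosb*, 2.24 for *Zfp36*, 1.16 for *Ier2*, 0.94 for *Junb*, 0.92 for *Atf3* and 0.82 for *Jun*.

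The annotated span of *Dusp1* overlaps *Ergic1* on the opposite strand by 640 bases at the far 5′ end, away from the 3′ end that was sequenced. *Ergic1* had 240 to 1664 counts per library, against 4498 to 19040 for *Dusp1*.

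**Figure D2:**
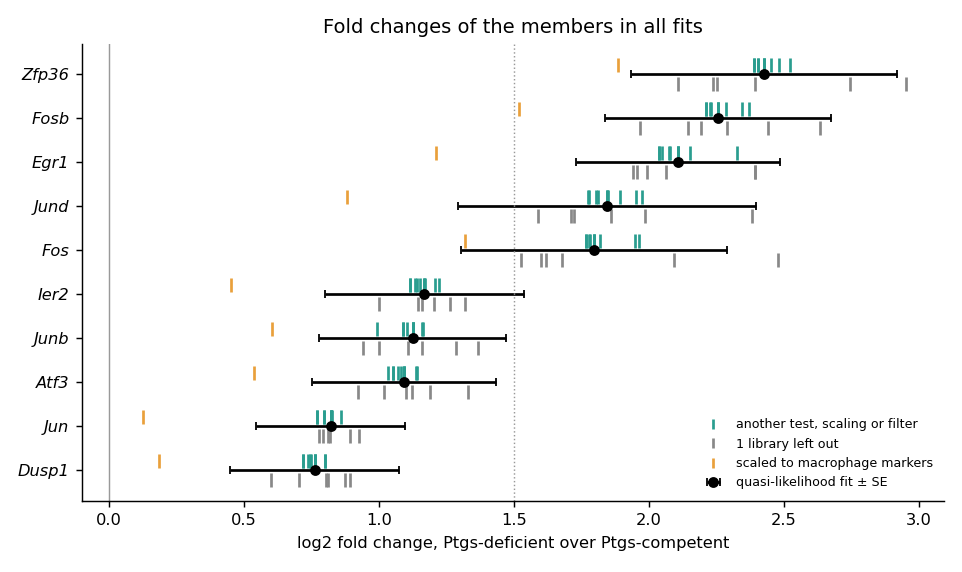
Log2 fold change of each member, Ptgs-deficient over Ptgs-competent. Black points with bars are the quasi-likelihood fit ± SE, green ticks other tests, scalings or filters, grey ticks fits with 1 library left out and the orange tick the fit scaled to macrophage markers; the dotted line is the fold threshold of a call (1.5). All ticks lie above 0, the orange ones lowest, from 0.12 in *Jun* to 1.88 in *Zfp36*.

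Relative to macrophage-marker RNA, the differences of all 10 members were smaller, as the median of all genes fell too, and the groups overlapped in 7 members. With the summed counts of the 10 macrophage markers in place of library totals, a scaling chosen after seeing the data, the median over all genes tested moved to -0.65 on the log2 scale. The members lay above 0, from 0.12 for *Jun* and 0.19 for *Dusp1* to 1.52 for *Fosb* and 1.88 for *Zfp36*. No member was called, in a fit that called 1 of 8793 genes (0.0114%) and 0 as higher. The median of the members was 0.74. Per 100 marker reads the members together gave 52.0, 45.6 and 85.8 reads in Ptgs-competent TAMs and 90.3, 104 and 78.5 reads in Ptgs-deficient TAMs.

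On this scale *Fos*, *Fosb* and *Zfp36* did not overlap between groups (3 of 10, against 6.45% of all genes), and the other 7 members did. The overlap came from Ptgs-competent replicate 3, the library with few macrophage-marker reads. Without it all 10 members again separated the groups, an ordering found in 14.1% of genes between the remaining libraries. *Lyz2* supplied between 58.6% and 67.7% of the marker reads, so that this scale rests mostly on 1 gene. Whether the share of macrophage RNA accounts for the members' difference was not tested.

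**Figure D3:**
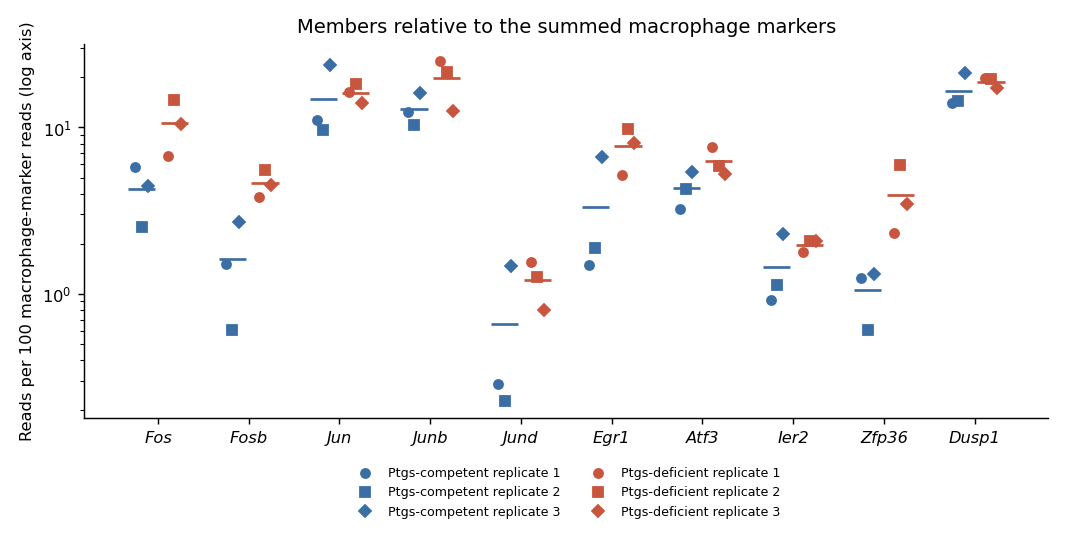
Reads of each member per 100 reads of the summed macrophage markers in every library, on a log axis, with symbols as in the plot of CPM by library. Ptgs-competent replicate 3 (blue diamonds) reaches or passes the lowest Ptgs-deficient library in 7 genes, and the groups stay apart in *Fos*, *Fosb* and *Zfp36*.

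A count from the 3′ kit does not grow with transcript length, but other differences between genes in how reads are captured were not measured. The order of levels across genes is therefore approximate. In the Ptgs-competent group *Dusp1*, *Jun* and *Junb* had the highest levels, with means within 1 SD of *Dusp1* or *Junb*, followed by *Fos* and *Atf3*, which also lay within 1 SD of each other. *Egr1*, *Fosb*, *Ier2* and *Zfp36* came next, and *Jund* was lowest. In the Ptgs-deficient group *Junb* and *Dusp1* had the highest means, with *Jun* within 1 SD of *Junb*, and *Jund* was again lowest. *Zfp36* stood above *Ier2*, while the means of *Egr1* and *Atf3* differed by less than 1 SD of *Egr1*.

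The composition of AP-1 transcripts was examined as shares of family reads within each library. *Fosb* made up 17.8% ± 4.29 of Fos-family reads in the Ptgs-competent and 27.9% ± 2.17 in the Ptgs-deficient group (SD, n = 3), and *Fosl1* 4.56% ± 3.30 and 0.230% ± 0.227. Neither share overlapped between groups, and both gave an exact two-sided permutation p of 0.1, the smallest that 3 against 3 allows. For *Fos* (53.4% ± 14.9 and 61.8% ± 8.19, exact p = 0.6) and *Fosl2* (24.2% ± 8.67 and 10.0% ± 6.68, exact p = 0.2) the groups overlapped. Without Ptgs-competent replicate 3 the mean share of that group was 15.6% for *Fosb*, 2.94% for *Fosl1*, 61.7% for *Fos* and 19.8% for *Fosl2*, so that the *Fosl1* share rested in part on that library.

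*Fosl2*, a slower member of the family, had CPM of 164, 119, 182 and of 269, 166, 140 and thus lacked the ordering of *Fos* and *Fosb*. Among Jun-family reads *Jun* and *Junb* took most of the reads, in parts that varied between libraries, from 38.1% *Jun* and 58.3% *Junb* in Ptgs-deficient replicate 1 to 57.5% and 39.0% in Ptgs-competent replicate 3. *Jun* held 50.6% ± 5.96 and 44.5% ± 6.45 (exact p = 0.4), *Junb* 47.5% ± 7.31 and 52.3% ± 6.11 (exact p = 0.4), and *Jund* 1.95% ± 1.36 and 3.20% ± 0.360 (exact p = 0.3) in the Ptgs-competent and Ptgs-deficient groups (SD, n = 3). The *Jund* share depended on Ptgs-competent replicate 3, at 3.51% against 1.21% and 1.11% in the other libraries of its group and 2.92% to 3.61% in the Ptgs-deficient libraries. Without it the mean was 1.16% and the groups did not overlap, while the means of *Jun* and *Junb* were 47.2% and 51.7%, inside the Ptgs-deficient range. These 7 shares were compared without adjustment, and none could pass a threshold of 0.05 in this design. Wilson 95% intervals were at most 1.87 percentage points wide to either side and cover counting error only.

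**Figure D4:**
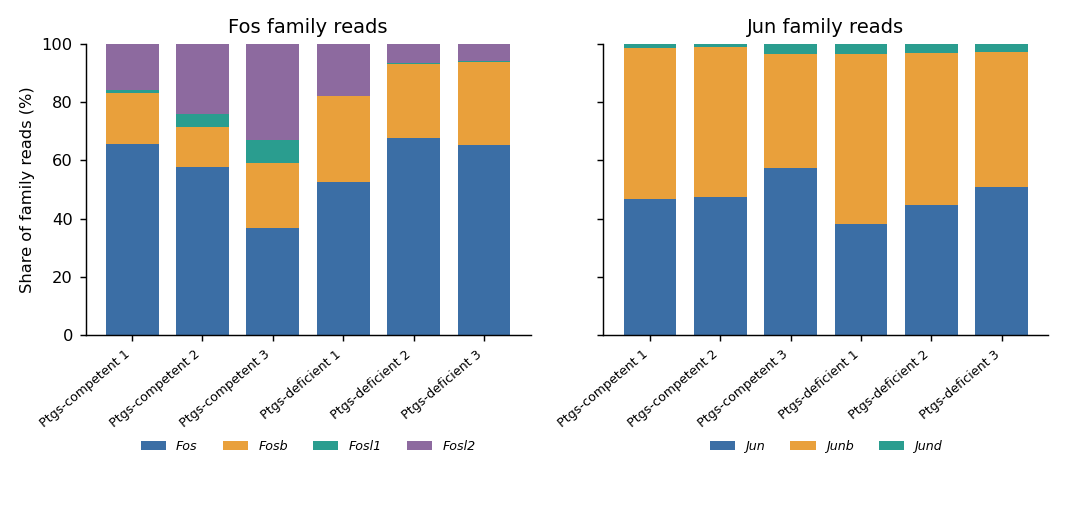
Share of reads of each gene among Fos-family and Jun-family reads (percent) in the 6 libraries, as stacked bars. *Fosb* (orange, left) takes 13.8% to 22.4% in Ptgs-competent and 25.5% to 29.8% in Ptgs-deficient libraries, and *Jun* and *Junb* (right) fill nearly all Jun-family reads in each library.

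The wider pathway was read from lists of related genes, and the members' direction extended to part of the other immediate-early genes. Of 29 tested genes of this list (32 named), 21 were higher and 8 lower in the Ptgs-deficient group, with a median log2 fold change of 0.92. The quasi-likelihood test called 0 of them, and 10 had an unadjusted p under 0.05, all of them higher, against 5.0% of all genes. The likelihood ratio test, DESeq2 and voom called 5, 4 and 4 of the list as higher, against 1.55%, 1.97% and 0.716% of all genes. *Klf2*, a Krüppel-like factor that restrains the activation of macrophages, measured 64.1, 148 and 109 CPM against 500.1, 542 and 487 CPM (log2 fold change 2.25 ± 0.39, FDR = 0.0622). *Klf4* differed by 1.89 ± 0.36 (FDR = 0.0773) and *Egr2*, the *Egr1* homolog, by 2.32 ± 0.46 (FDR = 0.0924).

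The other AP-1 and bZIP partners showed no common direction, with 10 of 17 tested genes higher, 7 lower and a median of 0.30. At an unadjusted p under 0.05, 2 were higher and 0 lower (5.0% and 3.82% of all genes). *Batf3*, a bZIP factor known for its role in cross-presenting dendritic cells, was the single gene of these pathway lists that the quasi-likelihood test called as higher (0.159% of all genes). The likelihood ratio test and DESeq2 called no other gene of this list, and both called *Batf3* (1.55% and 1.97% of all genes called as higher). It had 0, 0 and 0.216 CPM against 107, 75.5 and 87.7 CPM, which is at least 167-fold higher against a floor of 3 counts per library (FDR = 0.0324). It lost its call under voom (FDR = 0.0678), under the macrophage-marker scaling (FDR = 0.170) and without any 1 library other than Ptgs-competent replicate 3 (FDR = 0.0563 to 0.217). *Cebpb* was at 66.6, 39.6 and 28.0 CPM against 64.2, 465 and 124 CPM, a log2 fold change of 2.28 ± 0.73 (FDR = 0.306) that was 1.07 without Ptgs-deficient replicate 2. *Mafg*, next by p, overlapped between groups and differed by -0.96 ± 0.45 (FDR = 0.619).

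Other feedback inhibitors were split, with 12 of 21 tested genes higher and 9 lower. The quasi-likelihood test called 0 of them, with 4 higher and 2 lower at an unadjusted p under 0.05 (5.0% and 3.82% of all genes). The likelihood ratio test, DESeq2 and voom each called *Dusp4* and *Dusp6* as lower, as they did 1.19%, 1.76% and 0.682% of all genes. *Dusp6*, a cytoplasmic phosphatase that acts on ERK, was at 429.7, 414 and 404 CPM against 129, 118 and 142 CPM, a log2 fold change of -1.68 ± 0.32 (FDR = 0.0812) and thus opposite to *Dusp1*. *Dusp4*, a MAP kinase phosphatase of the nucleus, was at 32.4, 34.0 and 62.1 CPM in Ptgs-competent TAMs and had no count in any Ptgs-deficient library, at least 84.2-fold lower against the same floor (FDR = 0.158). *Nfkbiz*, an inhibitor-like regulator of NF-κB, differed by 1.34 ± 0.42 (FDR = 0.298).

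Upstream MAP kinases and their transcription factors did not share the members' direction, with 12 of 29 tested genes higher and 17 lower (median -0.27). The quasi-likelihood test and the likelihood ratio test called 0, voom called 0 and DESeq2 called *Map3k1* as higher (1.97% of all genes). A fit with the replicate number as a block called *Map3k8* as higher, among 77 of 8793 genes called in either direction. The 2 genes with an unadjusted p under 0.05, *Map3k8* and *Map3k1*, were both higher, and 2 of 29 is near the 5.0% of all genes that were higher by that rule. *Map3k8* (Tpl2), which links Toll-like receptors to ERK, had 17.9, 0 and 0 CPM against 202, 66.2 and 96.6 CPM (FDR = 0.464), and *Map3k1* had 1.43, 0 and 0 CPM against 26.3, 34.9 and 31.7 CPM (FDR = 0.493). The third by p, *Map2k1*, differed by 1.22 ± 0.58 (FDR = 0.639).

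Genes known to be bound by AP-1 lay mostly on the other side, with 4 of 19 tested genes higher and 15 lower, and a median of -0.80. At an unadjusted p under 0.05, 2 were higher and 7 lower (5.0% and 3.82% of all genes by that rule). *Mmp9*, a matrix metalloprotease, fell and was the single gene of the list called by the quasi-likelihood test, where 0.0569% of all genes were called as lower. It measured 1288, 1489 and 478 CPM against 10.4, 18.5 and 11.6 CPM (log2 fold change -6.32 ± 0.56, FDR = 0.00413), and it lost its call without Ptgs-competent replicate 1 (FDR = 0.0568) or Ptgs-deficient replicate 1 (FDR = 0.0637). The likelihood ratio test and DESeq2 each called 5 genes of the list as lower and 1 as higher, and voom 4 and 1. Over all genes these tests called 1.19%, 1.76% and 0.682% as lower and 1.55%, 1.97% and 0.716% as higher. *Mmp9*, *Mmp14* and *Hmox1* were among the lower and *Ccl2* was the higher gene in all 3 tests. *Mmp14* differed by -2.67 ± 0.58 (FDR = 0.114). The monocyte chemokine *Ccl2*, in contrast, measured 98.8, 216 and 208 CPM against 391, 1581 and 933 CPM (2.47 ± 0.53, FDR = 0.111).

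Transcripts known to be bound by Zfp36 were examined because *Zfp36* itself was higher. Of 15 tested, 10 were higher and 5 lower (median 0.41). None was called by the quasi-likelihood test, 3 had an unadjusted p under 0.05 (*Ccl2*, *Cxcl2* and *Tnfaip3*, all higher, against 5.0% of all genes), and the likelihood ratio test, DESeq2 and voom each called *Ccl2*, against 1.55%, 1.97% and 0.716% of all genes called as higher. *Tnf*, the best known target, was at 63.3, 82.2 and 92.0 CPM against 46.0, 71.9 and 55.3 CPM, with overlapping groups. *Il1b* overlapped too, at 640.4 to 2178 CPM against 1239 to 1995 CPM.

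Digestion of tissue can induce both immediate-early and heat-shock transcripts, and the latter were therefore measured beside the members. Of 12 heat-shock transcripts tested, 6 were higher and 6 lower (median -0.028), 0 were called by the quasi-likelihood test, and 2 in each direction had an unadjusted p under 0.05 (5.0% of all genes higher and 3.82% lower). The likelihood ratio test, DESeq2 and voom each called *Hspa1a* as higher (1.55%, 1.97% and 0.716% of all genes), and DESeq2 also called *Hsp90aa1* as lower (1.76%). *Hspa1a*, an inducible Hsp70, measured 169, 214 and 101 CPM against 591, 664 and 596 CPM (log2 fold change 1.94 ± 0.36, FDR = 0.0764). Its close copy *Hspa1b*, with which it can share reads, measured 77.6, 29.1 and 46.8 CPM against 112, 177 and 222 CPM (1.74 ± 0.54, FDR = 0.294), so that both lay higher in every Ptgs-deficient library. *Hsp90aa1* and *Hsp90ab1* went the other way, by -1.69 ± 0.47 (FDR = 0.235) and -1.05 ± 0.30 (FDR = 0.243). A part of dissociation in the members' difference was not tested.

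**Figure D5:**
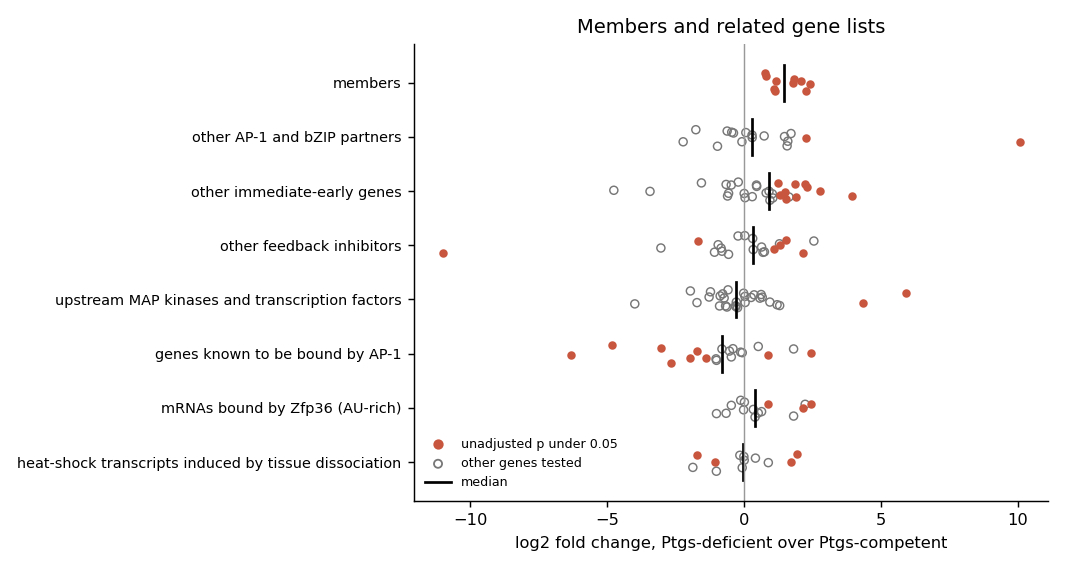
Log2 fold change of each tested gene by list, Ptgs-deficient over Ptgs-competent. Filled points have an unadjusted p under 0.05 in the quasi-likelihood test, open points do not, and black lines are medians. The members (top row) all lie above 0 with a median of 1.48, the other immediate-early genes have a median of 0.92, and genes known to be bound by AP-1 one of -0.80.

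The members' profiles resembled each other, with Pearson correlations of log2 CPM between 0.56 and 0.98 over the 45 pairs (median 0.87), and between 0.55 and 0.99 (median 0.87) without Ptgs-competent replicate 3. These are descriptions over 6 libraries that share the group difference and their depths. The genes outside the list closest to the members' mean profile were *Ifit2* (r = 0.997), *Sepp1* (0.994), *Cmtm3* (0.992), *Galnt4* (0.992) and *Map3k1* (0.992), and 343 of the genes tested (3.91%) had an r above 0.9. *Ifit2*, *Galnt4* and *Map3k1* were at or near 0 in the Ptgs-competent libraries (1.43 CPM at most), so that their r mostly restates the difference between groups. *Sepp1*, which encodes a secreted selenium carrier, rose from 521, 270.1 and 250.9 CPM to 1882.5, 2180.4 and 2837 CPM (FDR = 0.0324), and *Cmtm3* rose from 48.0, 34.6 and 20.9 CPM to 260.4, 313 and 319 CPM (FDR = 0.0324). Both lost their calls under the macrophage-marker scaling and without any 1 library other than Ptgs-competent replicate 3, with FDR up to 0.170 and 0.205 when a library was left out. *Ifit2*, an interferon-induced gene, was at 1.12, 0.164 and 0.216 CPM against 42.9, 65.4 and 90.0 CPM (FDR = 0.105). Closest to *Fos* alone were *Klf6* (0.995), *Gmfg* (0.993) and *Tmsb4x* (0.991), and closest to *Jun* were *Galnt4* (0.997), *Map3k1* (0.997) and *Sepp1* (0.996).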

How the data were processed

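The authors deposited read counts per gene, not normalized, for the 6 libraries. Libraries were made with the QuantSeq 3′ kit (FWD); per the methods, reads were trimmed with BBDUK, fqtrim and cutadapt, aligned to GRCm38 with STAR and counted per Ensembl gene by featureCounts. The sources used here give no versions of these tools, no strand setting and no treatment of multi-mapping reads, and they mention no molecular identifiers. The submitters' processing notes also name bcl2fastq and edgeR. No column lay outside the 6 libraries.

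Counts were analysed in R 4.3.3. Genes were filtered with filterByExpr (a minimum count of 10 and a total of 15), which left 8793 of 39179 genes, scaled by TMM and compared with the two-sided quasi-likelihood test of edgeR 4.0.16 with no covariate, adjusted by Benjamini-Hochberg over all genes tested. Calls needed an FDR of 0.05 and an absolute log2 fold change of 1.5, the thresholds of the study. Standard errors were obtained as the size of the log2 fold change over the root of its F statistic. Correlations used log2 CPM with a prior count of 2. DESeq2 1.42.0, limma 3.58.1, other scalings and filters, a replicate block and each library left out were alternatives. Depth ranged from 4431184 to 8760679 counts per library, and the common biological coefficient of variation was 1.26.

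The members and all lists were chosen with earlier results of these data known. Named were all members; of each other pathway list the genes called, otherwise the 3 with the smallest p (where a gene was called, the next 2 by p were named as well: *Cebpb* and *Mafg*, *Ccl2* and *Mmp14*); and the 5 genes closest to the members' mean profile and 3 each to *Fos* and *Jun*. *Tnf*, *Il1b*, *Hmox1*, *Hspa1b*, single marker genes, *Fosl1*, *Fosl2* and overlapping neighbors were named beside these after their values were seen. Markers were matched by symbol, with *Adgre1* found by its gene identifier. Promoters came from RefSeq (GRCm38.p6) and positions from GENCODE M21, counted from 1. The RefSeq starts of *Atf3*, *Dusp1*, *Zfp36* and *Jund* lie 34706, 53656, 1025 and 1210 bases from the outermost GENCODE starts.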

Additional observations from a re-analysis of the deposited data

How the results depend on the processing

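The direction of all 10 members held in each of 17 alternative fits: of 170 refitted fold changes, 0 reversed, 19 passed the call threshold that the quasi-likelihood fit missed and 151 kept their side of it. The number of genes called varied widely around the 19 of that fit. It was 241 under the likelihood ratio test, 328 under DESeq2, 123 under limma voom with sample weights, 252 with no filter on low counts, and 1 under scaling to macrophage markers, which was added after seeing the data. Members called numbered 3, 4, 4, 4 and 0 in these fits. Leaving out single libraries gave 0 to 25 genes and 0 to 1 members called: 0, 11 and 25 genes without Ptgs-competent replicate 1, 2 or 3, and 2, 4 and 3 genes without Ptgs-deficient replicate 1, 2 or 3. With the replicate block 77 genes and 3 members (*Fosb*, *Egr1* and *Zfp36*) were called. Libraries of the same number did not deviate together (correlations of -0.049, -0.022 and -0.022), and none correlated best with its own number. With 3 libraries per group this check cannot tell whether those of one number were prepared together, and the labels do not say. The median of all genes moved to 0.39 under voom, 0.26 with the block, 0.14 and 0.13 without Ptgs-competent replicates 1 and 3 and -0.65 under macrophage-marker scaling. The causes of these shifts were not tested. All members had at least 156 counts in every library, and a part of depth in their results was not tested.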
